A study of Salmo salar with 16 samples.

Results

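Serum albumin and transferrin are the main carrier proteins of blood plasma, and 3 Atlantic salmon genes annotated for them are considered here. They are alb1 (serum albumin 1, gene 100136575), LOC100136922 (serum albumin 2, gene 100136922) and trf (transferrin, gene 100136560), found by symbol in the deposited annotation of genome build ICSASG_v2 among 81574 genes in the count table. All 3 passed the filter on low counts, which left 37043 genes to be tested. Messenger RNA was sequenced from liver, mid-brain, pituitary gland and ovary as 16 libraries, 4 biological replicates per tissue. The tissues came from 4 sexually immature female fish, 3 years old, of the North American derived SALTAS breeding program, so the tissues share fish and no group received a treatment. Neither males nor maturing fish were sampled, so each tissue is described at 1 stage of 1 sex. A library is named below by its tissue and its replicate number.

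Albumin is secreted by hepatocytes, and it maintains the colloid osmotic pressure of the plasma and carries fatty acids, bile pigments, hormones and metal ions. Transferrin, likewise secreted by the liver in vertebrates, binds ferric iron in the blood and delivers it to cells that carry the transferrin receptor. After endocytosis the iron is released in the endosome, reduced by a STEAP metalloreductase, moved to the cytosol by natural resistance-associated macrophage protein 2, and stored in ferritin or exported by ferroportin. The ancestor of the salmonids underwent a whole-genome duplication, and many of their genes, the albumins included, are present as more than 1 copy.

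The gene models of the albumin copies were compared by exon length. The alb1 gene lies on chromosome 1 at 101401500 to 101416191 on the plus strand, with 14 exons that together span 2225 bases, of which 1827 are coding. LOC100136922 lies on chromosome 18 at 33372568 to 33390421 on the minus strand, and its model is marked as partial, with 13 exons of 2037 bases in all and 1708 coding bases. Each of these 13 exons had the same length as its counterpart among exons 2 to 14 of alb1, so both copies had 2037 exonic bases there. The partial model had no counterpart to exon 1 of alb1, which holds 188 bases or 8.45% of the alb1 length. The trf gene lies on chromosome 3 at 17218635 to 17226358 on the plus strand, with 17 exons and 2577 bases over 2 annotated transcripts, 2091 of them coding.

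The annotation held 2 further genes of these families, and both were tested. LOC106570911, named serum albumin 2-like, lies on chromosome 15 at 4947367 to 4966590 on the plus strand. It has 14 exons of 2434 bases in all, of which 11 matched alb1 in length, and its coding length of 1827 bases equalled that of alb1. LOC106599563, named serotransferrin-1-like, lies on chromosome 3 at 17111335 to 17118247, on the same strand as trf and 100388 bases to its left, with 1 uncharacterized gene between them. Its partial model has 10 exons of 1333 bases in all, and 7 of the 10 matched trf in length.

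**Figure D1:**
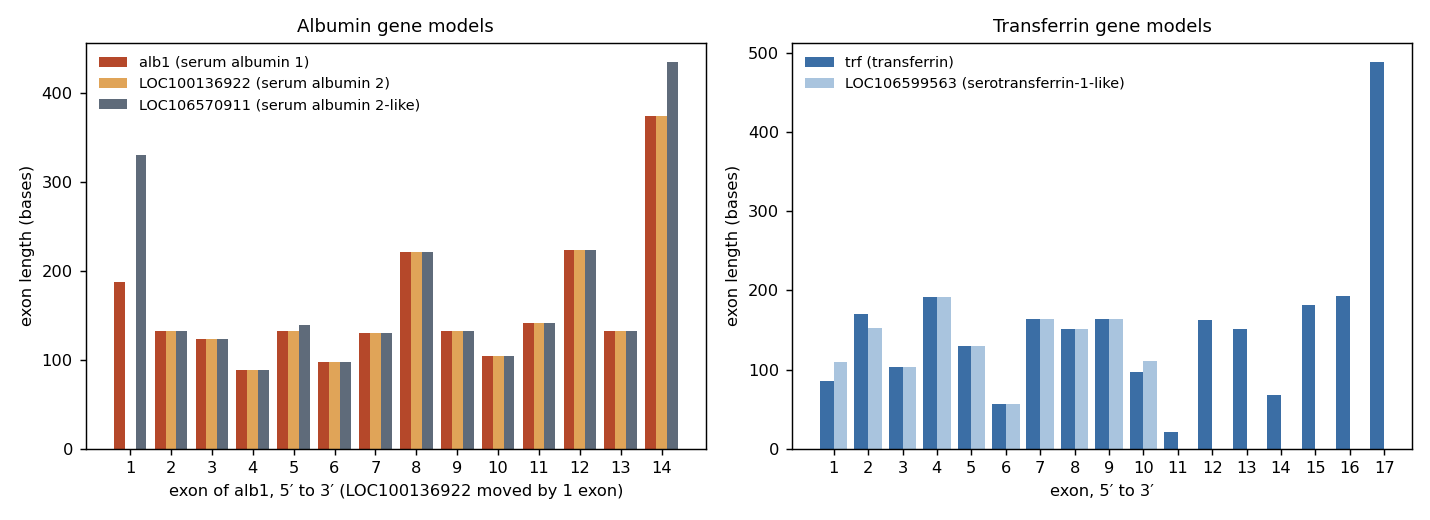
Exon lengths in bases (vertical axis) by exon number from 5′ to 3′ (horizontal axis) for the albumin gene models on the left and the transferrin gene models on the right, with 1 bar per exon and gene. The 13 exons of LOC100136922, placed under exons 2 to 14 of alb1, all had the length of their alb1 counterparts, while LOC106570911 differed in 3 of 14 exons.

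Likeness in sequence, which was not analysed, bears on how the copies were counted, because only uniquely mapped reads were counted on exons. A read that fitted alb1 and LOC100136922 equally well entered neither count, so every level below is that of the reads which told the copies apart. The library kit marked the strand, but the strand setting of the counting is not given in the sources used here. A long noncoding RNA gene, LOC106613777, lies within alb1 on the opposite strand and shares 0 exon bases with it. It had 0 counts in all 4 liver libraries.

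In the liver these genes were among the most heavily read of all. Counts of alb1 were 490875, 504258, 606122 and 580992 in liver replicates 1 to 4, which ranked it number 3, 3, 1 and 2 of all genes by count. Counts of LOC100136922 were 258211, 195279, 293395 and 259330, at ranks 10, 17, 11 and 12. Counts of trf were 295951, 467192, 471808 and 409994, at ranks 7, 5, 4 and 7. Together the 3 genes took 5.46% ± 0.524 of all counts in the liver (SD, n = 4), against 0.00691% in the brain, 0.00292% in the pituitary gland and 0.00961% in the ovary.

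For comparison between libraries, counts are given as CPM, the counts scaled to a common library size (counts per M) and corrected for composition with edgeR's TMM factors. Total counts ranged from 20.6 to 51.9 M, and the TMM factors were 0.494 to 0.537 in the liver and 0.938 to 1.48 in the other tissues. Dividing CPM by the exon length in kilobases gives FPKM, on which genes of different length can be compared. On that scale alb1 averaged 21580 ± 2281 FPKM in the liver, trf 14018 ± 2698 FPKM and LOC100136922 10901 ± 2017 FPKM (SD, n = 4 each). By FPKM the order was alb1, trf, LOC100136922 in liver replicates 2, 3 and 4, whereas in liver replicate 1 LOC100136922 stood above trf, with 11645 FPKM against 10550 FPKM.

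Expression of alb1 was 45095, 43493, 54946 and 48525 CPM in liver replicates 1 to 4. The brain replicates had 36.0, 4.46, 21.2 and 13.7 CPM, the pituitary replicates 13.9, 9.15, 6.88 and 8.89 CPM and the ovary replicates 17.6, 19.5, 24.2 and 20.4 CPM. Every liver library thus stood more than 1000 times above every library of the other tissues. The brain libraries were the most uneven, with replicate 1 about 8.06 times as high as replicate 2.

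For LOC100136922 the liver replicates had 23721, 16843, 26597 and 21660 CPM. The brain replicates had 20.2, 1.91, 12.7 and 5.98 CPM, the pituitary replicates 4.79, 4.82, 3.39 and 4.52 CPM and the ovary replicates 9.72, 9.78, 12.1 and 9.28 CPM. The brain libraries took the same order as for alb1, replicate 1 first and replicate 2 last. The lowest single count of a member in the whole table was 101, for LOC100136922 in pituitary replicate 3, so the traces were counted well above the floor of 3 counts.

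For trf the liver replicates had 27188, 40296, 42770 and 34243 CPM. The brain replicates had 32.7, 7.42, 26.0 and 19.4 CPM, the pituitary replicates 18.8, 16.5, 12.5 and 14.3 CPM and the ovary replicates 32.1, 36.4, 37.3 and 38.5 CPM. Transferrin again had brain replicate 1 highest and brain replicate 2 lowest, and the ovary was the most even tissue, with a range of 1.20 times. No library outside the liver overlapped the liver for any of the 3 genes, though the share of all genes with such a gap was not taken.

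**Figure D2:**
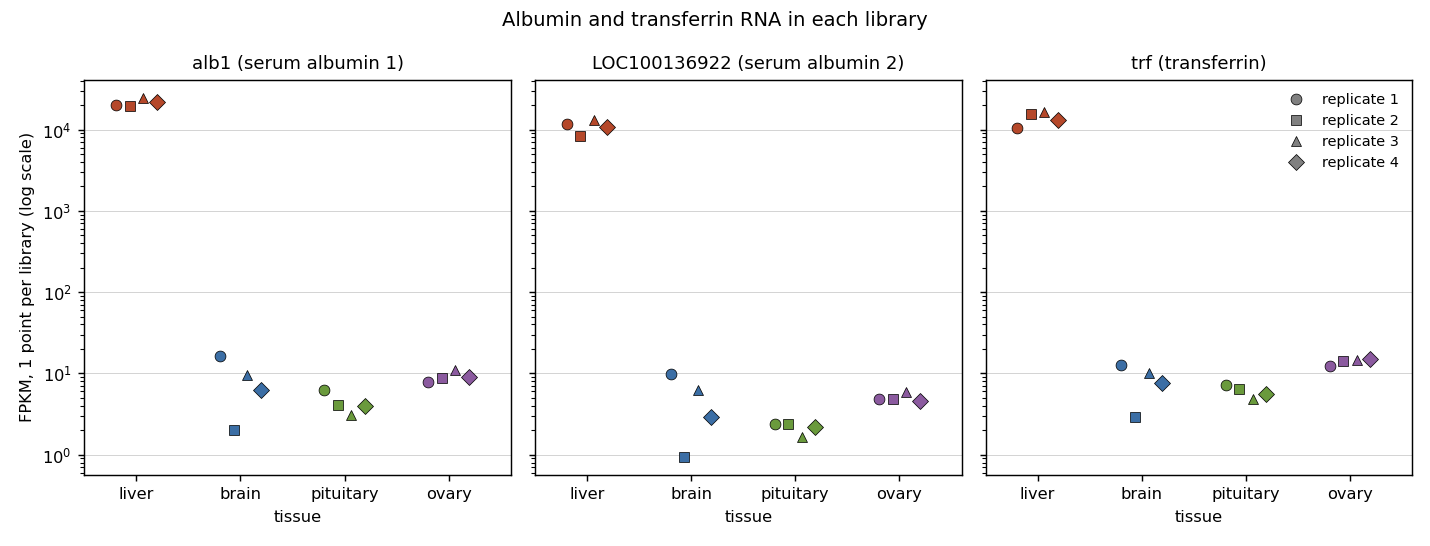
FPKM of alb1, LOC100136922 and trf on a log axis (vertical) in each library of liver, brain, pituitary gland and ovary (horizontal), with 1 point per library and a symbol for each replicate number. Liver means were 21580, 10901 and 14018 FPKM, and brain replicate 2 was the lowest library for each gene.

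The comparison of the liver with each other tissue used edgeR's quasi-likelihood test, fitted to all tested genes in 16 libraries. A gene was called where its Benjamini-Hochberg adjusted p did not exceed 0.001 and its log2 fold change was 2 or more in size. All 3 members were called higher in the liver against each tissue. Of all tested genes, 10.8% were called higher in the liver than in the brain, 10.9% than in the pituitary gland and 18.5% than in the ovary. The ± beside a log2 fold change is its size divided by the square root of the test's F statistic. It is an approximate standard error (SE), which need not match the spread between libraries. The log2 fold change of alb1 was 11.31 ± 0.71 (approximate SE) against the brain, with an edgeR adjusted p of 1.01e-09. It was 12.27 ± 0.73 against the pituitary gland (6.75e-10) and 11.20 ± 0.71 against the ovary (5.29e-10).

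The second copy gave nearly the same differences. The log2 fold change of LOC100136922 was 11.09 ± 0.72 against the brain (edgeR adjusted p of 1.56e-09), 12.31 ± 0.75 against the pituitary gland (9.11e-10) and 11.08 ± 0.72 against the ovary (7.71e-10). That of trf was 10.72 ± 0.55 against the brain (1.16e-10), 11.18 ± 0.56 against the pituitary gland (9.90e-11) and 9.97 ± 0.54 against the ovary (8.97e-11), or 1000-fold for the last of these. The median log2 fold change over all tested genes was -0.22 against the brain, -0.17 against the pituitary gland and -0.38 against the ovary. Scaled by plain library totals, the log2 fold changes of alb1 were 9.89 against the brain, 11.34 against the pituitary gland and 9.71 against the ovary, and all 3 genes stayed called. In tissue as a whole, fewer cells of a type and less RNA per cell cannot be told apart.

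Between the tissues outside the liver, 0 of the 3 members were called by edgeR's quasi-likelihood test or by DESeq2. Of all tested genes, 15.7% were called in either direction between brain and pituitary gland, 46.6% between brain and ovary and 41.2% between pituitary gland and ovary. The share of all tested genes with an unadjusted edgeR p under 0.05 was not taken. At that p, edgeR gave 1 member for brain over pituitary gland, 0 for brain over ovary and 3 for pituitary gland over ovary. The last contrast had log2 fold changes of -1.07 for alb1 (edgeR adjusted p of 0.0468), -1.22 for LOC100136922 (0.0317) and -1.22 for trf (0.00743), all short of the 4-fold limit in size. For brain over ovary the values were -0.11 for alb1 (0.825), -0.01 for LOC100136922 (0.99) and -0.75 for trf (0.0709), with DESeq2 size factors giving 0.12 for alb1 and 0.23 for LOC100136922. For brain over pituitary gland they were 0.96 for alb1 (0.0947), 1.22 for LOC100136922 (0.0459) and 0.46 for trf (0.305). For each of the 3 genes every pituitary library lay below every ovary library, while the brain libraries overlapped both tissues. The share of all tested genes that separated in this way was not taken. No order of the 3 tissues passed the calling rule.

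The copy ratio was taken within each library as alb1 over LOC100136922 per kilobase of exon, so that library scaling does not enter it. It was 1.74, 2.36, 1.89 and 2.05 in liver replicates 1 to 4, a mean of 2.01 ± 0.267 (SD, n = 4). In all 4 livers alb1 was the higher copy. Without correction for exon length the count ratios were 1.90, 2.58, 2.07 and 2.24. An exact sign-flip test of the log2 ratio against equal copies, two-sided, gave p = 0.125, which is the smallest p that 4 libraries allow.

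Outside the liver the mean ratio lay between 1.83 and 2.01. It was 1.63, 2.13, 1.53 and 2.098 in brain replicates 1 to 4 (mean 1.85 ± 0.309), 2.65, 1.73, 1.85 and 1.80 in the pituitary replicates (2.01 ± 0.429) and 1.65, 1.83, 1.83 and 2.01 in the ovary replicates (1.83 ± 0.144). The value of 2.65 in pituitary replicate 1 stood apart from the other 3 pituitary libraries, which lay between 1.73 and 1.85. The liver overlapped each tissue.

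In two-sided exact permutation tests over the 70 regroupings of 4 against 4 libraries, the copy ratio showed no difference past the threshold. The mean log2 ratio was 0.13 higher in the liver than in the brain (exact p = 0.429, adjusted p = 0.514 over 6 ratio comparisons). It was 0.02 higher than in the pituitary gland (exact p = 0.914, adjusted p = 0.914) and 0.13 higher than in the ovary (exact p = 0.314, adjusted p = 0.471). With each library left out in turn, the difference ranged from 0.04 to 0.20 against the brain, from -0.07 to 0.16 against the pituitary gland and from 0.05 to 0.20 against the ovary. The ratio rests on reads unique to 1 copy, and the share of reads lost to both copies was not analysed here.

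Transferrin was compared with the albumins in the same way, as trf over the sum of alb1 and LOC100136922, each per kilobase. The ratio was 0.331, 0.562, 0.440 and 0.410 in liver replicates 1 to 4, a mean of 0.435 ± 0.0961 (SD, n = 4). It was 0.486, 0.977, 0.640 and 0.825 in the brain replicates (0.732 ± 0.214), 0.846, 0.986, 1.02 and 0.893 in the pituitary replicates (0.936 ± 0.0803) and 0.984, 1.04, 0.858 and 1.09 in the ovary replicates (0.993 ± 0.0999). Every liver library lay below every pituitary and ovary library, while liver replicate 2 lay above brain replicate 1.

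The liver ratio was lower by 1.13 in log2 than the pituitary ratio, with p = 0.0286 in the exact permutation test, the smallest p that 4 against 4 libraries allow, and an adjusted p of 0.0857. Against the ovary it was lower by 1.21 (exact p = 0.0286, adjusted p = 0.0857), and against the brain lower by 0.73 (exact p = 0.0571, adjusted p = 0.114). None of the 3 passed an adjusted p of 0.05. Over the 6 ratio comparisons, that limit could be reached only if more than 3 of them had the smallest p. The 3 transferrin comparisons alone could therefore not pass it. With each library left out in turn, the log2 difference stayed between -1.26 and -1.0 against the pituitary gland, between -1.34 and -1.09 against the ovary and between -0.91 and -0.57 against the brain.

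**Figure D3:**
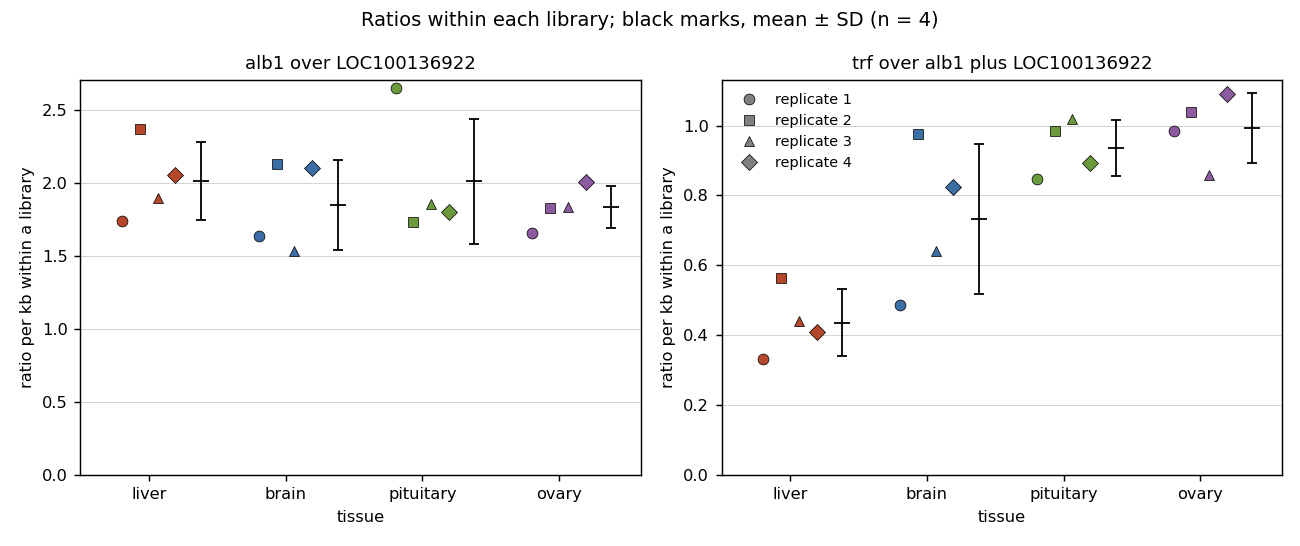
Ratios per kilobase within each library, by tissue: alb1 over LOC100136922 on the left and trf over the summed albumins on the right, with 1 point per library and black marks for the mean ± SD of 4 libraries. The copy ratio averaged 2.01 in liver, 1.85 in brain, 2.01 in pituitary gland and 1.83 in ovary, and the transferrin ratio averaged 0.435, 0.732, 0.936 and 0.993 in the same order.

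The spread between liver libraries differed from gene to gene. The SD of log2(CPM) over the 4 livers was 0.149 for alb1, 0.280 for LOC100136922 and 0.292 for trf. Among the 1721 genes that averaged at least 100 CPM in the liver the median SD was 0.174. A larger SD than that of alb1 was found for 60.7% of these genes, than that of LOC100136922 for 21.6% and than that of trf for 19.8%. The even copy was thus alb1, and the other 2 genes varied more than most of these 1721 genes. Genes as abundant as the members were not compared separately.

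The lowest liver was not the same for the albumins and trf. Set against its own mean over the 4 livers, alb1 deviated by -0.08, -0.14, 0.20 and 0.02 in log2(CPM) in liver replicates 1 to 4. LOC100136922 deviated by 0.12, -0.38, 0.28 and -0.02, and trf by -0.39, 0.18, 0.27 and -0.06. Liver replicate 3 was the highest library for each of the 3 genes, while liver replicate 2 was the lowest for both albumins and liver replicate 1 for trf. Each SD was also taken without its most extreme library. With 4 libraries such a step tends to lower any SD, and its effect on other genes was not compared. The SD fell to 0.080 for alb1 without liver replicate 3, to 0.148 for LOC100136922 without liver replicate 2 and to 0.166 for trf without liver replicate 1.

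**Figure D4:**
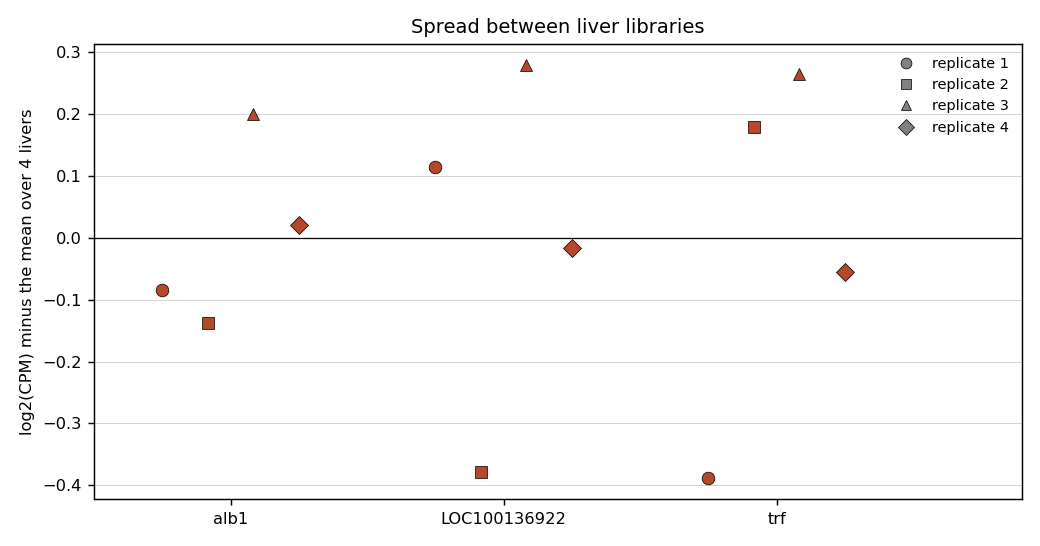
Deviation of log2(CPM) from the mean over the 4 liver libraries (vertical axis) for alb1, LOC100136922 and trf (horizontal axis), with a symbol for each replicate number. Liver replicate 2 lay lowest for LOC100136922 at -0.38 and liver replicate 1 lowest for trf at -0.39, while alb1 stayed between -0.14 and 0.20.

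The trace levels outside the liver were then set against the liver level of the same gene. The mean CPM of alb1 was 0.0393% of its liver mean in the brain, 0.0202% in the pituitary gland and 0.0425% in the ovary. For LOC100136922 the shares were 0.0459%, 0.0197% and 0.0460%, and for trf 0.0592%, 0.0430% and 0.0999%, in the same order of tissues. Transferrin had the larger share of its liver level in each of the 3 tissues, which the ratio to albumin restates. With plain library totals in place of the TMM sizes the shares were 1.91 to 2.81 times as large, up to 0.281% for trf in the ovary.

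The shares were set beside those of other proteins that hepatocytes secrete into plasma. Of a list of 62 genes for plasma proteins such as apolipoproteins, fibrinogens, complement and coagulation factors, 39 averaged at least 100 CPM in the liver. Their median share of the liver level was 0.0596% in the brain (range 0.0383% to 2.67%), 0.0365% in the pituitary gland (0.00921% to 0.431%) and 0.0731% in the ovary (0.0367% to 1.04%). A lower share than that of alb1 was found for 2 of the 39 in the brain, 2 in the pituitary gland and 1 in the ovary. For LOC100136922 these numbers were 7, 1 and 3, which put both albumins near the low end of the list. For trf they were 19, 22 and 26, in the middle of the list or above it.

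The summed level of the plasma protein list also varied between libraries of 1 tissue. Without the 3 members, the list summed to 306, 89.1, 488 and 292 CPM in brain replicates 1 to 4, with 41 to 43 of its 62 genes counted in each. Brain replicate 2, the most deeply sequenced library with 51.9 M counts, was thus the lowest in the list as it was for the 3 members. However, replicate 3 and not replicate 1 was the highest. The list gene rbp4 had the highest brain mean of the list, 102 ± 122 CPM, with an SD above its mean. Sums without rbp4 were not taken, so the order of the brain libraries may rest on it. In the pituitary gland the list summed to 161, 151, 128 and 147 CPM, with replicate 1 highest and replicate 3 lowest, as for alb1 and trf. The ovary sums were even, at 253 to 270 CPM.

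Traces of the opposite kind were present in the liver. Pituitary hormone genes, 17 in the list, summed to 451 to 732 CPM in the liver, against 374850 to 456260 CPM in the pituitary gland. In the mean this was 0.150% of the pituitary level in the liver, 0.106% in the brain and 0.132% in the ovary. For the plasma protein list the corresponding means were 0.0965% of the liver level in the brain, 0.0481% in the pituitary gland and 0.0857% in the ovary. The brain value includes rbp4, which averaged 102 ± 122 CPM there, so the order of brain and ovary may rest on that gene. The shares of both lists rest on the TMM sizes, with factors of 0.494 to 0.537 in the liver and 0.938 to 1.48 elsewhere. For the hormone list, the order of the tissues may change with that scaling. Shares with plain library totals were not taken for these lists. The origin of these traces was not tested.

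The tissue labels were checked by marker lists. Of the 45 plasma protein genes tested, 43 were called higher in the liver against each tissue. Over all tested genes, higher calls took 10.8%, 10.9% and 18.5% against the brain, the pituitary gland and the ovary. Neural markers, glial fibrillary acidic protein-like genes included, summed to 21.8 to 29.4 CPM in the liver, against 1921 to 9440 CPM in the brain. These markers and the oligodendrocyte markers were uneven between brain libraries, with replicate 4 lowest in both. Of all tested genes, 22.3% were called lower and 18.5% higher in the liver than in the ovary. Among the 25 egg and egg coat genes tested, 22 were called lower and 2 higher in this contrast. The 2 higher ones were LOC106573520 (zona pellucida sperm-binding protein 4-like) and LOC100380781 (zona pellucida sperm-binding protein 3). They averaged 15832 and 6664 CPM in the liver, where the whole list summed to 20912 to 24134 CPM. In the ovary the list summed to 3990 to 4878 CPM. Blood markers, all of them hemoglobin subunit genes, summed to 266 to 1011 CPM in the liver. Elsewhere they summed to 49.8 to 299.7 CPM (brain), 47.1 to 592 CPM (pituitary gland) and 9.43 to 17.0 CPM (ovary). The blood marker level was thus lowest in the ovary. The part of blood in the traces was not tested.

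The relative LOC106570911 gave another pattern from the 3 members. Its level was 214, 359, 174 and 365 CPM in liver replicates 1 to 4. The brain replicates had 2.45, 1.57, 0.206 and 3.86 CPM, the pituitary replicates 1.14, 1.57, 0.302 and 1.73 CPM and the ovary replicates 29.6, 23.7, 1.67 and 32.1 CPM. In each of the 4 tissues the library numbered 3 was the lowest, and in the ovary it was far below the other 3. The count behind it was 7 in the brain (exact Poisson 95% interval 2.81 to 14.4), 9 in the pituitary gland (4.12 to 17.1) and 63 in the ovary (48.4 to 80.6), intervals that cover counting error only. The 3 members were likewise lowest in pituitary replicate 3. By contrast, they were highest in liver replicate 3, and in brain replicate 3 they were below only replicate 1. In ovary replicate 3, alb1 and LOC100136922 had their highest ovary levels, 24.2 and 12.1 CPM. There trf had 37.3 CPM, below only ovary replicate 4. The sources used here do not say whether libraries of the same number came from the same fish.

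Per kilobase this albumin relative exceeded alb1 in ovary replicates 1, 2 and 4, with 12.2, 9.73 and 13.2 FPKM against 7.90, 8.78 and 9.15 FPKM of alb1. In ovary replicate 3 it had 0.687 FPKM, or 6.31% of alb1. The mean over the ovary libraries was 104% of alb1, with a range of 6.31% to 154%, against 0.542% in the liver, 16.2% in the brain and 11.2% in the pituitary gland. Its mean in the ovary was 7.83% of its liver mean, a larger share than that of any of the 39 plasma protein genes.

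LOC106570911 was called higher in the liver against each tissue. Its log2 fold change was 7.11 ± 0.91 against the brain (edgeR adjusted p of 3.69e-06), 7.88 ± 0.95 against the pituitary gland (2.37e-06) and 3.67 ± 0.77 against the ovary (4.00e-04). It was also called lower in the brain than in the ovary, at -3.43 ± 0.78 (7.37e-04), and lower in the pituitary gland than in the ovary, at -4.21 ± 0.83 (2.28e-04). Under some settings the calls that involve the ovary were lost, with the direction kept. For liver over ovary the call was lost without ovary replicate 1, 2 or 4 or liver replicate 2 or 4, at edgeR adjusted p of 1.16e-03 to 1.81e-03, and with plain library totals (0.0101). For brain over ovary it was lost in 13 of the 16 fits that left out 1 library, at 1.02e-03 to 2.26e-03, and stayed without ovary replicate 3, pituitary replicate 3 or brain replicate 4. It was also lost with DESeq2 size factors (1.18e-03) and with edgeR on the pair alone (0.0129). For pituitary gland over ovary it was lost without pituitary replicate 1 (1.18e-03) or 3 (1.10e-03).

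The transferrin relative LOC106599563 was likewise highest in the liver. It had 1672, 3394, 3307 and 2648 CPM in liver replicates 1 to 4, with replicate 1 lowest as for trf. Outside the liver it averaged 1.82 ± 0.525 CPM (brain), 1.26 ± 0.532 CPM (pituitary gland) and 2.46 ± 0.351 CPM (ovary; SD, n = 4 each). Per kilobase it was 14.5% ± 1.86 of trf in the liver, 19.0% ± 7.35 in the brain, 15.5% ± 5.85 in the pituitary gland and 13.2% ± 1.97 in the ovary. Its log2 fold change was 10.57 ± 0.44 against the brain (edgeR adjusted p of 1.32e-11), 11.10 ± 0.45 against the pituitary gland (1.10e-11) and 10.13 ± 0.43 against the ovary (6.89e-12), all called.

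**Figure D5:**
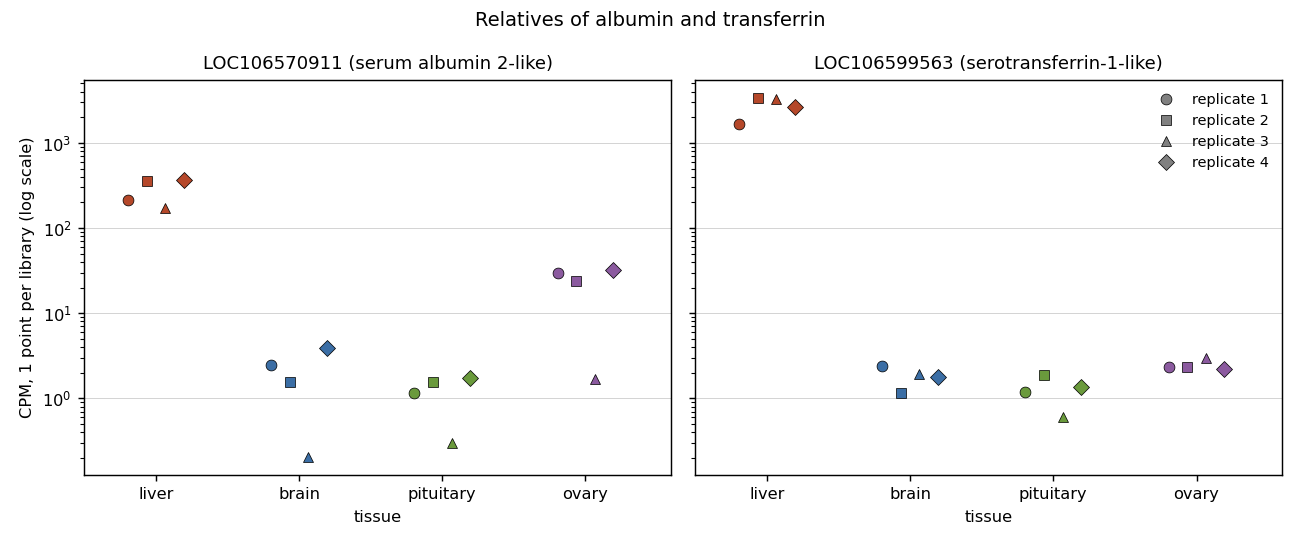
CPM on a log axis (vertical) of LOC106570911 on the left and LOC106599563 on the right in each library of liver, brain, pituitary gland and ovary (horizontal), with a symbol for each replicate number. Replicate 3, the triangle, is the lowest library of LOC106570911 in each tissue, at 174, 0.206, 0.302 and 1.67 CPM, while LOC106599563 had its lowest liver value of 1672 CPM in replicate 1.

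Genes for the cellular uptake of transferrin iron were called in both directions. Of 17 such genes 12 were tested, and 6 were called higher and 1 lower in the liver than in the brain, 5 and 1 than in the pituitary gland, and 1 and 2 than in the ovary. Over all tested genes, higher calls took 10.8%, 10.9% and 18.5% against the brain, the pituitary gland and the ovary. Lower calls took 22.1%, 17.3% and 22.3% in the same order. The median log2 fold change of the 12 genes was 1.42, 1.04 and -0.63, in the same order of tissues. A transferrin receptor protein 1-like gene, LOC106597167, averaged 445 ± 69.9 CPM in the liver, against 43.5 ± 17.4 CPM (brain), 40.3 ± 8.01 CPM (pituitary gland) and 146 ± 9.49 CPM (ovary). It was called in the liver against brain and pituitary gland, at log2 fold changes of 3.35 and 3.47, but not against the ovary (1.61).

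Another transferrin receptor protein 1-like gene had its highest mean in the ovary. LOC106579454 averaged 12.1 ± 1.13 CPM in the liver, against 20.7 ± 3.98 CPM (brain), 21.0 ± 1.55 CPM (pituitary gland) and 62.5 ± 2.21 CPM (ovary), and was called lower in the liver than in the ovary, at -2.37 ± 0.14 (edgeR adjusted p of 2.30e-10). The metalloreductase gene stea4 was the 1 gene of this list called higher in the liver against all 3 tissues, with 201 ± 75.5 CPM in the liver and 0.687 to 2.14 CPM in the other means. A STEAP3-like gene, LOC106574427, averaged 43.4 ± 1.95 CPM in the liver and 63.0 ± 2.66 CPM in the ovary and was called only against the brain (8.97 ± 5.17 CPM). LOC106567082, a natural resistance-associated macrophage protein 2-like gene, averaged 36.6 ± 8.30 CPM in the liver, against 0.229 ± 0.136 CPM (brain), 4.03 ± 0.499 CPM (pituitary gland) and 60.0 ± 6.02 CPM (ovary), and was called higher in the liver than in brain and pituitary gland.

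Genes for the storage, export and regulation of iron numbered 51, of which 32 were tested. Of these, 10 were called higher and 1 lower in the liver than in the brain, 10 and 2 than in the pituitary gland, and 11 and 5 than in the ovary. Over all tested genes, higher calls took 10.8%, 10.9% and 18.5% and lower calls 22.1%, 17.3% and 22.3% in the same order. The median log2 fold change of the 32 genes was 0.80, 0.94 and -0.59 in that order. Ceruloplasmin (cp), a plasma ferroxidase that readies iron for transferrin, averaged 4186 ± 147 CPM in the liver, against 762 ± 470 CPM (brain), 5.51 ± 1.15 CPM (pituitary gland) and 4.17 ± 0.479 CPM (ovary), and was called against each. The ferritin heavy subunit gene LOC100136564 averaged 3933 ± 429 CPM in the liver and 374 to 788 CPM in the other means, and frih (gene 100194637) averaged 2495 ± 272 CPM in the liver and 332 to 562 CPM elsewhere. Both ferritin genes were called against each tissue.

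A ferritin middle subunit gene, LOC106600949, averaged 365 ± 142 CPM in the liver and was called against brain (80.8 CPM) and pituitary gland (28.7 CPM) but not the ovary (105 CPM). LOC106564379, annotated as like transmembrane protease serine 6, which lowers hepcidin in mammals, averaged 345 ± 23.2 CPM in the liver and 0.0704 to 0.392 CPM elsewhere. Hepcidin, the liver hormone that blocks ferroportin, was added after its values were seen. The hepcidin gene LOC106584587 averaged 214 ± 277 CPM in the liver, with an SD above its mean, and hepc1 averaged 128 ± 43.8 CPM, both called in the liver against each tissue.

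Genes for albumin uptake, the endocytic receptors of epithelia, numbered 9. Of these 4 were tested, against 37043 of all 81574 genes in the count table. In the liver 1 of the 4 was called lower than in the brain, 2 than in the pituitary gland and 2 than in the ovary, while the rest were not called. Lower calls took 22.1%, 17.3% and 22.3% of all tested genes in the same order of tissues. Cubilin (cubn), a receptor for albumin and other ligands in mammals, averaged 4.24 ± 1.85 CPM in the liver, against 19.2 ± 17.9 CPM (brain), 128 ± 22.1 CPM (pituitary gland) and 0.867 ± 0.223 CPM (ovary). LOC106579098, annotated as like the lipoprotein receptor-related protein known as megalin, a partner of cubilin in mammals, averaged 0.574 CPM in the liver, against 1.66 CPM (brain), 27.3 CPM (pituitary gland) and 26.4 CPM (ovary). LOC106586206, with the same annotation, averaged 0.421 CPM in the liver, against 10.5 CPM (brain), 0.680 CPM (pituitary gland) and 4.14 CPM (ovary).

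The genes with the pattern most like that of each member were other abundant liver genes. Likeness was taken as Pearson's r of log2(CPM + 1) over the 16 libraries, among tested genes, and it mainly reflects the gap between the 4 liver libraries and the rest. For alb1 the closest were LOC106560589 (histidine-rich glycoprotein-like), LOC106578170 (fibrinogen beta chain-like), LOC106605687 (uncharacterized), LOC106581121 (fucolectin-6-like) and LOC106604501 (ribonuclease-like 3), with r from 0.9989 to 0.9994. For LOC100136922 the list held LOC106605687, LOC106560589, LOC106578170, LOC106577517 (uncharacterized) and LOC106581121, with r from 0.9987 to 0.9991. For trf it held LOC106560589, catm (cathepsin M), LOC106604501, LOC100136563 (protein AMBP) and itih2 (inter-alpha-trypsin inhibitor heavy chain 2), with r from 0.9986 to 0.9991. The albumin copies had an r of 0.9994 with each other, and trf had 0.9985 with alb1 and 0.9975 with LOC100136922. An r above 0.99 was shared by 341 genes for alb1, 302 for LOC100136922 and 333 for trf, so such a value is common among liver genes.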

How the data were processed

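Reads of the 16 stranded, poly(A)-based libraries were filtered for quality and mapped by the authors to ICSASG_v2 with TopHat2 2.1.1 and SAMtools 1.4, and uniquely mapped reads on exons were counted with HTSeq 0.7.2. The deposited table holds these raw counts per gene without normalization, and each of its columns was used. The deposited centered table was not used. Gene names, positions and merged exon lengths came from the deposited annotation, and chromosome numbers from the order of its chromosome sequences, checked by gene ID against a RefSeq table of a later assembly (29 of 29 chromosomes).

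Counts were analysed with edgeR 4.0.16 in R 4.3.3, using TMM, filterByExpr and the quasi-likelihood test in 1 fit over all libraries taken as independent. The fit was also run on simulated counts. These held smaller fold changes than the members had and no composition difference like that of the liver, so they do not cover these conditions. Ratios used a pseudocount of 0.5. The members and lists were chosen with earlier results of these data known, and lists were trimmed of products matched by part of a word. Named list genes are the called ones with the highest mean CPM, up to 5 a list. Alternatives were DESeq2 1.42.0, other size factors, no filter, each pair of tissues alone, a replicate block, other pseudocounts, raw count ratios and leaving out each library. The replicates are labelled as biological. No sequences, promoters or proteins were analysed here.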

Additional observations from a re-analysis of the deposited data

Results flagged for a closer look

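Of 28 groups of 4 libraries examined for a library far from the others, covering the CPM of the 3 members and 2 relatives and both ratios in each tissue, 1 had such a library, and chance gives about 1 in 20. The ratio of alb1 over LOC100136922 per kilobase was 2.648 in pituitary replicate 1, against 1.734, 1.854 and 1.798 in the other pituitary libraries, a gap of 0.869 of the whole range. It rests on 377 counts of alb1 and 130 counts of LOC100136922 in that library.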

How the results depend on the processing

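In each setting tried, the 3 members stayed called in the liver against each tissue and uncalled between the other tissues. For brain over ovary the sign was not settled for alb1 and LOC100136922. For trf it was negative in each setting, at -1.03 to -0.47 with 1 library left out. The log2 fold change of alb1 was 0.12 with DESeq2 size factors, 0.16 with edgeR on the pair alone and 0.11 with the DESeq2 Wald test, and -0.64 to 0.21 with 1 library left out. For LOC100136922 these values were 0.23, 0.27, 0.22 and -0.58 to 0.34. The copy ratio of liver minus pituitary gland ranged from -0.07 to 0.16 with 1 library left out. The SD between livers ranged from 0.080 to 0.182 for alb1, 0.148 to 0.343 for LOC100136922 and 0.166 to 0.355 for trf.

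With plain library totals, by construction without the composition factor of the liver, the trace as a percent of liver in brain, pituitary gland and ovary was 0.105, 0.0387 and 0.119 for alb1, 0.122, 0.0379 and 0.129 for LOC100136922, and 0.158, 0.0829 and 0.281 for trf. DESeq2 size factors gave 0.0884 for trf in the ovary.

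Over 24 pairs of same-numbered libraries, the correlation of their deviations ran from -0.0024 to 0.158 (median 0.0913). It exceeded 0.1 in 10 pairs, among them the 4 pairs of liver and pituitary gland. Differently numbered libraries were not compared, so whether the numbers mark the same fish cannot be told from these values. The main fit did not take the numbers as pairs. With the replicate block, liver over brain was 11.49 for alb1, 11.27 for LOC100136922 and 10.79 for trf, and the block changed no call of these 3 genes. LOC106570911 kept its calls with the replicate block, at edgeR adjusted p of 6.56e-06 for liver over ovary, 3.79e-05 for brain over ovary and 1.60e-05 for pituitary gland over ovary. Trace values are limited by counts of 101 upward.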
